A study of Homo sapiens with 36 samples.

Results

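TAZ was knocked down in untransformed MCF-10A ER-Src cells, and the change in RNA was measured by sequencing. The comparison held the libraries titled TAZi_ETH and Ctrli_ETH with 2 libraries each, that is 4 of the 36 libraries of the series, and used the estimated counts of genes with Ensembl identifiers. MCF-10A is a non-tumorigenic human breast epithelial line with basal features, and the ER-Src derivative carries a v-Src kinase fused to the hormone-binding part of the estrogen receptor. All 4 libraries therefore came from cells that held the oncoprotein in its inactive state, grown with ethanol vehicle (ETH) in medium with charcoal-stripped serum, EGF, hydrocortisone, cholera toxin and insulin. TAZi_ETH cells had received small interfering RNA (siRNA) against TAZ and Ctrli_ETH cells a negative control siRNA, by lipid transfection the day before the cells were split into vehicle. Other groups of the same line were used only for comparison. These were Ctrli_TAM and TAZi_TAM, with the same siRNAs and the transforming treatment, which the labels give as tamoxifen, to switch v-Src on, together with AZD0530 (TAM, exposure time not given there), and YAPi_ETH, with siRNA against the paralog YAP under vehicle, each with 2 libraries. The labels do not say whether the replicates were separate cultures, so the tests measure the spread between these libraries, which may be technical. A single parental line was used.

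TAZ, encoded by WWTR1, is a transcriptional co-activator of the Hippo pathway. The kinases LATS1 and LATS2 phosphorylate TAZ and its paralog YAP and hold them in the cytoplasm. Without that mark they enter the nucleus and act through DNA-binding partners, mainly the TEAD factors and also AP-1 proteins, on genes of growth, adhesion and the cytoskeleton.

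The study's reagent list gives for TAZ a commercial siRNA pool and a single oligonucleotide, and which of them went into these libraries is not stated, although the study's methods name pools. The sense strand of the single oligonucleotide is shown because it can be placed on the targeted gene, with the matching bases of the transcript in capitals in the second line and 15 bases of coding sequence on each side.
TAZ siRNA, sense strand: acguugacuuaggaacuuu
WWTR1 coding sequence: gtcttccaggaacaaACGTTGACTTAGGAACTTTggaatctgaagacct
Its 19 bases matched chr3:149520887-149520905 (GRCh38, minus strand), in exon 7 of 7 of the transcript WWTR1-201 and starting at base 1103 of 1200 of the coding sequence. The site was present in 6 of the 12 annotated WWTR1 transcripts and in no transcript of another gene in GENCODE v44.

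WWTR1 (ENSG00000018408.14, chr3:149517235-149736714, minus strand, GRCh38) stood at 324 and 360.0 normalized counts in Ctrli_ETH and 95.9 and 92.8 in TAZi_ETH. Both TAZi_ETH libraries lay far below both controls. The log2 fold change was -1.86, SE 0.25, adjusted p = 4.6e-11 (DESeq2, n = 2 per group, as for all adjusted p-values below unless edgeR is named). Per length, WWTR1 was at 6.38 ± 0.325 TPM (a level corrected for transcript length and library size, mean ± SD, n = 2) in Ctrli_ETH and at 2.33 ± 0.622 TPM in TAZi_ETH. Some WWTR1 RNA thus remained under ETH, as it did under TAM, where the level was 6.51 ± 0.106 TPM in Ctrli and 1.34 ± 0.0849 TPM in TAZi. With offsets for the deposited effective lengths the change under ETH was -1.48, and it passed the threshold of 0.01 in every alternative fit, each left-out library included. YAP1 (chr11:102110447-102233424, plus strand), which encodes the paralog, stood at 1802 and 1673 normalized counts in Ctrli_ETH and 1632 and 1413 in TAZi_ETH. The TAZi_ETH values were a little below the controls, and the difference did not pass the test (-0.19, SE 0.13, adjusted p = 0.46, 95% interval of the log2 change -0.44 to 0.061). In YAPi_ETH, YAP1 was at 5.1 and 4.74 TPM and WWTR1 at 5.51 and 4.95 TPM, so each siRNA group had the lower level of its own target.

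**Figure D1:**
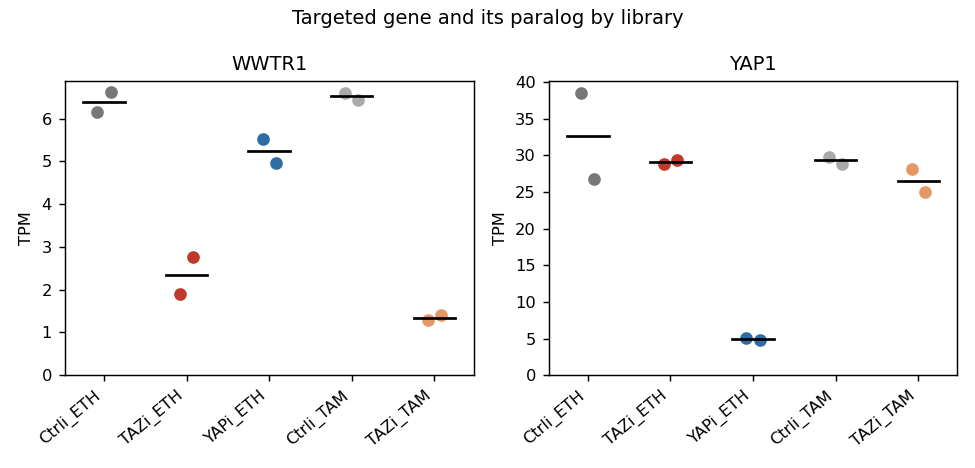
TPM of WWTR1 (left) and YAP1 (right) in each library of 5 ER-Src groups. Each point is 1 library, the bar is the mean of the 2 libraries of a group, and the vertical axes start at 0. WWTR1 is low in both TAZi groups and YAP1 only in YAPi_ETH among the groups drawn.

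The 4 libraries held 7949070 to 11942413 estimated counts, with the TAZi_ETH libraries (9620449 and 7949070) somewhat shallower than the controls (11942413 and 10848740). Of 30849 genes with counts, 14102 received an adjusted p after DESeq2's filter on low means, and 739 of them (5.24%) were called at an adjusted p below 0.01. Of these, 367 (2.60%) were higher and 372 (2.64%) lower in TAZi_ETH. With effective length offsets 6.91% of the tested genes were called, 343 higher (2.54%) and 590 lower (4.37%), so the balance of the directions depends on that scaling. edgeR's quasi-likelihood test called 491 genes (3.37%), 272 higher (1.87%) and 219 lower (1.50%), of which 424 were also DESeq2 calls. Leaving out single libraries left 128 to 463 calls, fewest without Ctrli_ETH replicate 1. Over the tested genes the median log2 change was -0.0082. Markers of the labelled breast epithelium were present, with KRT5 at 1802 ± 41.7 TPM in Ctrli_ETH, KRT14 at 137 ± 9.64 TPM and none of 15 mammary and basal markers below 1 TPM in every library. Of 8 fibroblast markers, 6 stayed below 1 TPM in each of the 4 libraries, and COL1A2, PDGFRA and THY1 were at 0. Of 5 endothelial markers all stayed below 1 TPM, and of 6 blood cell markers only CD68 exceeded it, which shares most of its exonic bases with another gene on its strand.

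**Figure D2:**
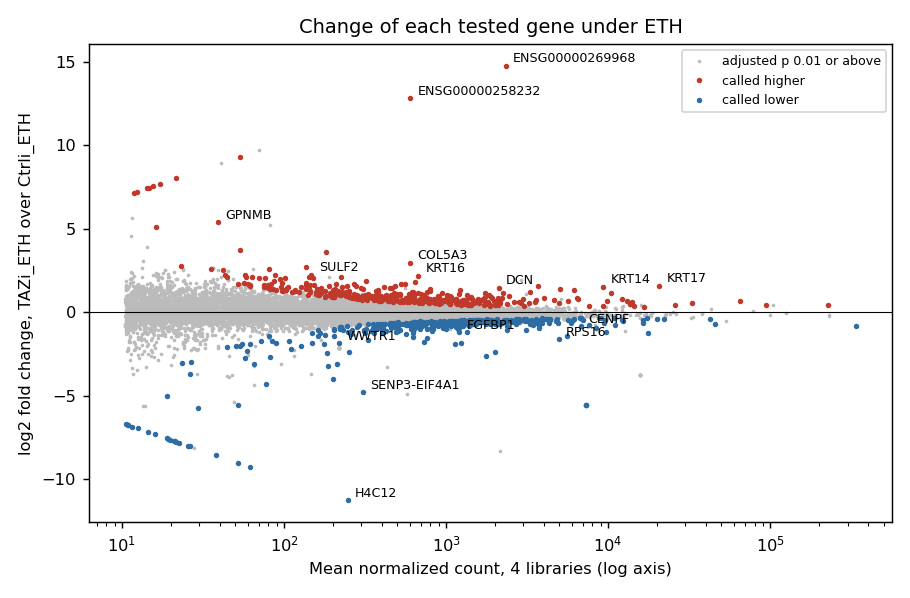
log2 fold change of TAZi_ETH over Ctrli_ETH (vertical) against the mean normalized count of the 4 libraries (horizontal, log axis) for the 14102 tested genes, with genes called higher in red and lower in blue. The slanted rows of points far above and below 0 are genes with no or almost no counts in both libraries of one group, for which the fitted fold change has no fixed size.

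The genes that rose most under TAZ knockdown included a collagen, a matrix sulfatase, a stress keratin and several regulators. Those with the largest change, taken from called protein-coding genes whose normalized counts averaged 100 or more and whose groups did not overlap, included COL5A3, SULF2, KRT16, ANGPT1, ATOH8, MAP2, UNC5B, HRNR and AKR1C2. All 739 called genes had groups without overlap in normalized counts, so that condition removed none. A lack of overlap given below for a called gene therefore adds no support to its call. The share over all tested genes was not computed. COL5A3 (chr19:9959561-10010504, minus strand), a chain of fibrillar collagen V, was at 88.3 and 187 normalized counts in Ctrli_ETH and 1107 and 1023 in TAZi_ETH. Every TAZi_ETH value was more than 5 times the highest control, although the controls differed from each other about 2-fold. The log2 change was 2.95, SE 0.51, adjusted p = 7.0e-07. SULF2 (chr20:47656197-47786616, minus strand), an extracellular sulfatase that trims heparan sulfate chains, was at 38.2 and 65.5 normalized counts in Ctrli_ETH and 270.4 and 216 in TAZi_ETH. Its groups were also far apart, with a log2 change of 2.24, SE 0.34, adjusted p = 4.5e-09. AKR1C2 (chr10:4987775-5018031, minus strand), an aldo-keto reductase of steroid metabolism, was at 287 and 277 normalized counts in Ctrli_ETH and 785 and 1233 in TAZi_ETH, and its TAZi_ETH libraries were both higher while differing between themselves. Its log2 change was 1.84, SE 0.21, adjusted p = 9.9e-16. AKR1C2 is nearly identical in sequence to other AKR1C genes, so its share of their reads is an estimate, but AKR1C1 was called higher as well (1.15).

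KRT16 had a log2 change of 2.20, ANGPT1, a ligand of the endothelial receptor TIE2, of 2.15, and ATOH8, a basic helix-loop-helix factor, of 2.14. MAP2, a microtubule-associated protein, changed by 2.13, UNC5B, a netrin receptor, by 2.08, and HRNR, a cornified envelope protein of the S100-fused type, by 2.05. The control libraries of these 6 genes lay between 28.0 (UNC5B) and 281 (KRT16) normalized counts. All 9 genes were also called by edgeR. Sizes moved with single libraries. With a library left out, COL5A3 ranged from 2.51 to 3.58, ANGPT1 from 1.87 to 2.38 and UNC5B from 1.71 to 2.54. COL5A3, ANGPT1 and UNC5B were not called in every such fit.

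Several keratins, and other genes of stratified epithelium, rose. Among the 17 tested of a list of 21 keratins, 5 rose (KRT16, KRT17, KRT14, KRT5 and KRT6A), 2 fell (KRT81 and KRT18) and 10 did not pass, and the median log2 change was 0.64. These are 29.4% higher and 11.8% lower, against 2.60% and 2.64% of all tested genes. KRT14 (chr17:41582279-41586895, minus strand), the type I keratin of basal cells, was at 4175 and 5378 normalized counts in Ctrli_ETH and 13691 and 14000.1 in TAZi_ETH. Both TAZi_ETH values were more than 2 times either control, and the log2 change was 1.54, SE 0.12, adjusted p = 2.2e-33. KRT17 (chr17:41619442-41624842, minus strand), a type I keratin of basal and wounded epithelium, was at 9797 and 10633 normalized counts in Ctrli_ETH and 26648 and 35482 in TAZi_ETH, again with no overlap between groups (1.60, SE 0.13, adjusted p = 3.6e-33). KRT16 (chr17:41609778-41615899, minus strand), which pairs with KRT6 in activated keratinocytes, was at 202 and 281 normalized counts in Ctrli_ETH and 969.8 and 1244 in TAZi_ETH (2.20, SE 0.20, adjusted p = 1.3e-25). KRT5 (chr12:52514575-52520530, minus strand), the type II partner of KRT14, was already abundant and rose less, from 1802 ± 41.7 TPM to 2556 ± 94.1 TPM (log2 change 0.70, SE 0.092, adjusted p = 7.4e-12, edgeR adjusted p = 0.0105). KRT81 (chr12:52285913-52291534, minus strand), a hair-type keratin with close copies, fell by 0.72 on the log2 scale (adjusted p = 3.2e-12, edgeR 0.0105), and KRT18, of simple epithelium, fell by 0.40. KRT34, a hair-type keratin, and KRT87P, a keratin pseudogene, are not on the list and were looked up after the values were seen. KRT34 was at 289 and 264 normalized counts in Ctrli_ETH and 140.3 and 125 in TAZi_ETH and fell by 1.06 (adjusted p = 0.00101), and KRT87P fell by 0.92 (adjusted p = 1.1e-08). edgeR called 4 keratins of the list, all higher (KRT14, KRT15, KRT16 and KRT17). KRT14, KRT16 and KRT17 lie in one cluster on chromosome 17 and share long stretches of sequence, among themselves and with pseudogenes, so reads may have been split between them by the estimation of counts, which was not tested.

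Of 38 genes of the cornified envelope, the cross-linked protein shell of outer epidermis, 28 of the 37 that were matched stayed below 1 TPM, and 9 were tested. Of these 9, 5 rose (55.6%, against 2.60% of all tested genes) and none fell (by edgeR, 5 and none of 11). TGM1 (chr14:24249114-24264432, minus strand), the transglutaminase that cross-links the envelope, was at 425 and 486 normalized counts in Ctrli_ETH and 1023 and 1123 in TAZi_ETH. The groups were well separated and the change was 1.24, SE 0.16, adjusted p = 6.1e-13. FLG, encoding filaggrin, was at 14.4 and 28.9 normalized counts in Ctrli_ETH and 79.7 and 111 in TAZi_ETH, and it therefore rose within a range of very low levels (0.35 ± 0.0849 TPM in TAZi_ETH, log2 change 2.14, SE 0.50, adjusted p = 0.00077). S100A8 and S100A9, whose products form calprotectin, changed by 1.06 and 0.75, and PPL, encoding periplakin, by 0.78. Without Ctrli_ETH replicate 1 only 1 of the cornified envelope genes was called, and without TAZi_ETH replicate 2 only 2 were.

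Some desmosome and junction genes rose as well. Of 28 tested, 6 rose, none fell and 22 did not pass, with a median log2 change of 0.33 (0.10 with effective length offsets, where 5 rose). The share that rose was 21.4%, against 2.60% of all tested genes. DSP (chr6:7541338-7586714, plus strand), encoding desmoplakin, which ties desmosomes to keratin filaments, was at 4527 and 4677 normalized counts in Ctrli_ETH and 8426 and 8165 in TAZi_ETH. The replicates agreed closely within each group, and DSP rose by 0.85, SE 0.094, adjusted p = 7.8e-17 on the log2 scale. PERP (chr6:138088505-138107419, minus strand), a desmosome-associated membrane protein that is also a p53 target, was at 2706 and 2949 normalized counts in Ctrli_ETH and 5031 and 5423 in TAZi_ETH (0.89, SE 0.11, adjusted p = 1.8e-14). DSC3 and DSG3, the desmosomal cadherins of basal layers, changed by 0.96 and 0.69, JUP, encoding plakoglobin, by 0.92 (edgeR adjusted p = 0.0102), and CDH1, encoding E-cadherin, by 0.71. In TPM, which takes each library's effective length into account, CDH1 was at 13.4 ± 1.68 TPM in Ctrli_ETH and 14.8 ± 0.58 TPM in TAZi_ETH, a much smaller difference than in counts. Its groups overlapped in TPM, with 14.6 in Ctrli_ETH replicate 1 and 14.4 in TAZi_ETH replicate 1. Without Ctrli_ETH replicate 1, 3 of the junction genes were called.

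**Figure D3:**
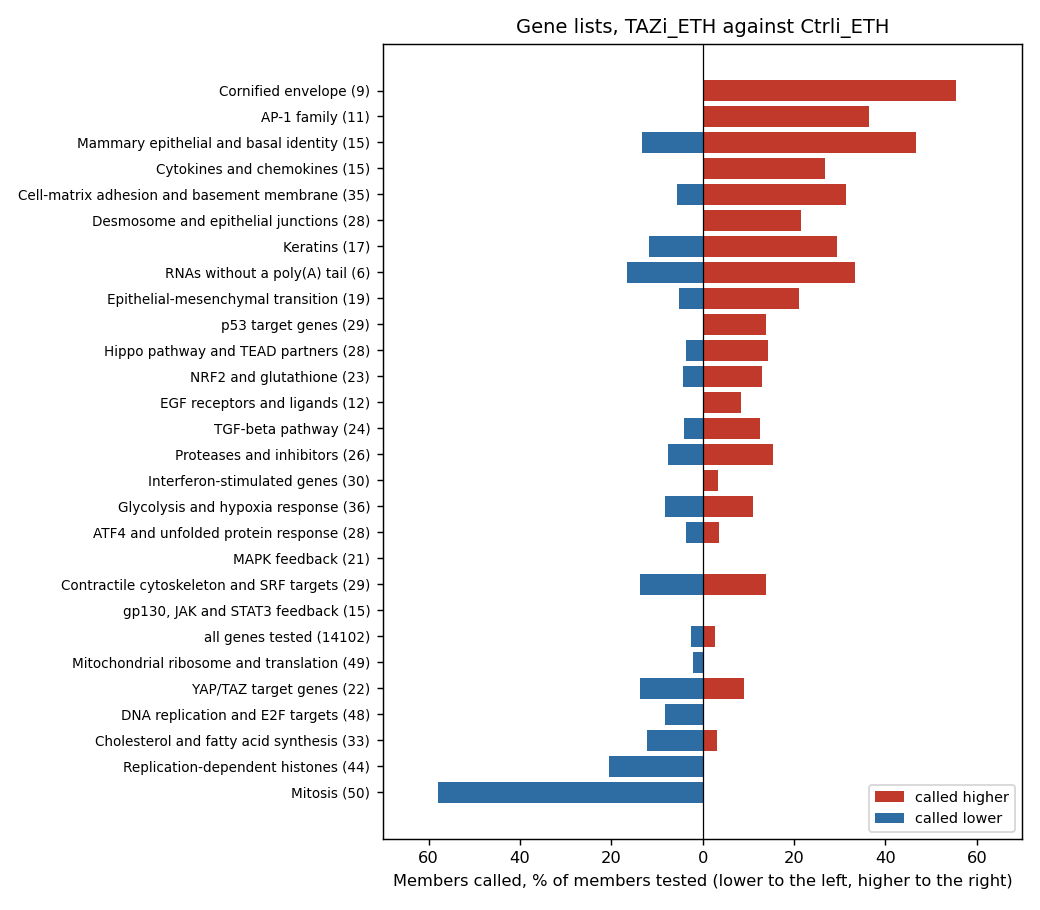
Share of tested members (number tested in brackets) of each gene list called higher (right, red) or lower (left, blue) in TAZi_ETH. Lists with at least 5 tested members are drawn, and the row for all genes tested shows the background of 2.60% higher and 2.64% lower. Mitosis has the largest share lower and the cornified envelope the largest share higher among the lists drawn.

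Genes of mitosis were lower. Of 50 tested, 29 fell and none rose (58.0%, against 2.64% of all tested genes called lower), and 49 of the 50 estimates were below 0, with a median of -0.59 on the log2 scale. edgeR called 12 of them, all lower. The summed level of the list was 1577 and 1210 TPM in Ctrli_ETH and 977 and 911 TPM in TAZi_ETH. It was 880 and 557 TPM in YAPi_ETH and 1021 and 960 TPM in Ctrli_TAM. Sums below those of Ctrli_ETH were thus not confined to the TAZi libraries. CENPF (chr1:214603185-214664574, plus strand), a large protein of the outer kinetochore, was at 9047 and 8497 normalized counts in Ctrli_ETH and 5516 and 4292 in TAZi_ETH. Both TAZi_ETH values lay below both controls and the change was -0.84, SE 0.12, adjusted p = 2.2e-09. BUB1 (chr2:110637528-110678063, minus strand), a spindle checkpoint kinase, was at 1446 and 1273 normalized counts in Ctrli_ETH and 819 and 724 in TAZi_ETH (-0.82, SE 0.14, adjusted p = 1.2e-06). NUF2, of the NDC80 kinetochore complex, and TTK, another checkpoint kinase, fell by 0.86 and 0.82. Smaller changes were called for PRC1 (-0.69), which bundles the central spindle, AURKB (-0.68), the kinase of the chromosomal passenger complex, CCNB1 (-0.58), encoding cyclin B1, and TOP2A (-0.50), encoding topoisomerase IIα. In RNA from whole cultures, fewer cells in a phase and less RNA per cell cannot be told apart. The number of calls depended on single libraries. It was 1 without Ctrli_ETH replicate 1, 8 without Ctrli_ETH replicate 2, 18 without TAZi_ETH replicate 1 and 3 without TAZi_ETH replicate 2, while the median of the list stayed between -0.66 and -0.50 in these fits.

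Genes of DNA replication moved less. Of 48 tested, 4 fell (8.33%, against 2.64% of all tested genes) and none rose, and 44 estimates were below 0 (median -0.33). TYMS, encoding thymidylate synthase, was at 657 and 664 against 351 and 349.7 normalized counts in Ctrli_ETH and TAZi_ETH and changed by -0.91, SE 0.17, adjusted p = 6.5e-06. The others called were MCM6 and MCM7, of the replicative helicase, at -0.75 and -0.39, and RRM2, of ribonucleotide reductase, at -0.48, and edgeR called TYMS alone. Leaving out single libraries left 0 to 2 of the list called by DESeq2, 0 without Ctrli_ETH replicate 1 or without Ctrli_ETH replicate 2, with list medians between -0.39 and -0.29. Of 44 replication-dependent histone genes, 9 fell (20.5%, against 2.64% of all tested genes) and none rose by DESeq2. The number that fell was 3 by edgeR, 1 with effective length offsets and 0 with all 10 ER-Src groups in the fit. Of the histone genes, 1 fell with either Ctrli_ETH library left out (and 1 rose without Ctrli_ETH replicate 2) and 2 fell with either TAZi_ETH library left out. Histone genes exist in many near-identical copies. H4C12 went from 640.3 and 346 normalized counts to 0 in both TAZi_ETH libraries, at least 149-fold lower with a floor of 3 counts per library, while the sum over 14 H4 genes went from 19471 and 20639 to 16777 and 17668. Of 29 p53 target genes, 4 rose (TP53INP1 1.22, BTG2 0.88, PHLDA3 0.85 and CDKN1A 0.76, which encodes the cell cycle inhibitor p21) and none fell, and edgeR called TP53INP1 and BTG2. The 4 are 13.8% of the list, against 2.60% of all tested genes. None of the p53 targets was called by DESeq2 without Ctrli_ETH replicate 1 or without TAZi_ETH replicate 2, 1 without Ctrli_ETH replicate 2 and 2 without TAZi_ETH replicate 1.

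The list of 22 known YAP/TAZ target genes did not move in a single direction. By DESeq2, 2 rose, 3 fell and 17 did not pass, with a median log2 change of 0.22 and 8 estimates below 0. That is 9.09% higher and 13.6% lower, against 2.60% and 2.64% of all tested genes. NT5E (chr6:85449584-85495791, plus strand), encoding the surface nucleotidase CD73, was at 1194 and 1057 normalized counts in Ctrli_ETH and 482 and 547 in TAZi_ETH, with TAZi_ETH well below the controls and no overlap (-1.13, SE 0.15, adjusted p = 5.3e-11). MYOF, encoding the membrane repair protein myoferlin, fell by 0.65 (edgeR adjusted p = 0.0112), and AXL, a receptor tyrosine kinase, by 0.47 (edgeR 0.023). IGFBP3 (chr7:45912245-45921874, minus strand), which binds insulin-like growth factors, was at 132 and 131 normalized counts in Ctrli_ETH and 296 and 308 in TAZi_ETH (1.20, SE 0.24, adjusted p = 4.7e-05). AMOTL2, an angiomotin that binds YAP, changed by 0.50 (edgeR adjusted p = 0.031). The matricellular genes CCN1 and CCN2, often used as YAP/TAZ readouts, did not pass the threshold. CCN2 stood at 103 and 87.6 normalized counts in Ctrli_ETH and 75.7 and 92.8 in TAZi_ETH, with overlapping groups and a log2 change of -0.18, SE 0.37, adjusted p = 0.88. The estimate for CCN1 was -0.14 (adjusted p = 0.76). ANKRD1 did not pass either (-0.19, 53.5 and 71.2 against 62.6 and 46.4 normalized counts). In this list 1 rose without TAZi_ETH replicate 1 and none when any other library was left out, 1 fell with either Ctrli_ETH library left out, 2 fell with either TAZi_ETH library left out, and edgeR called 1 higher and 1 lower.

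Among 28 genes of the Hippo pathway and its TEAD partners, WWTR1 was the only one that fell (3.57%, near the 2.64% of all tested genes). Of the list 4 rose (14.3%, against 2.60%). These were VGLL4 (0.84) and VGLL3 (0.65), cofactors that bind TEAD proteins, AJUBA (0.52), a LIM protein that restrains LATS kinases, and AMOTL2. edgeR called VGLL3 alone of the 4, at most 1 of the list was called higher when a single library was left out, and with effective length offsets 1 was higher and 4 were lower. Of 11 AP-1 family genes tested, 4 rose (36.4%, against 2.60% of all tested genes) and none fell. FOSL2 (chr2:28392448-28417317, plus strand), encoding FRA-2, was at 735 and 734 normalized counts in Ctrli_ETH and 1272 and 1537 in TAZi_ETH, and its TAZi_ETH values lay well above the controls (0.93, SE 0.14, adjusted p = 1.8e-08). JUND (0.99) and JUN (0.91) passed in DESeq2 but not in edgeR (adjusted p = 0.039 and 0.02). The AP-1 genes called numbered 4 without TAZi_ETH replicate 1 and 2 when any other single library was left out.

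The core promoters of CCN2, AXL, AMOTL2 and THBS1, a matrix gene described below, are shown as examples of the TEAD core motif beside different responses, and were picked after the values were seen. The windows run from 250 bases before to 50 after the RefSeq start (GRCh38.p14), and capitals mark GGAATG or its reverse complement CATTCC.
CCN2, chr6:131951323-131951622, minus strand: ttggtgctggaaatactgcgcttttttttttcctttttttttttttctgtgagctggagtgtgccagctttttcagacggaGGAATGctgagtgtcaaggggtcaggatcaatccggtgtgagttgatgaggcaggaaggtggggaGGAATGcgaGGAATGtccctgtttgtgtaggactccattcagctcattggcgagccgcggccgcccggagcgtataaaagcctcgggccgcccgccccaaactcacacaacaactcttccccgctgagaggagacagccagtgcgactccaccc
AXL, chr19:41226505-41226804, plus strand: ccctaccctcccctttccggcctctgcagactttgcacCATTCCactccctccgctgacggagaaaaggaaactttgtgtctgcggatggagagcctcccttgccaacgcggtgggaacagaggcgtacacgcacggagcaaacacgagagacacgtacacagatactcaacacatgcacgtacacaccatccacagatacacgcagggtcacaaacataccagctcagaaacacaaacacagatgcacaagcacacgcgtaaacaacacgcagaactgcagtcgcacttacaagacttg
AMOTL2, chr3:134374398-134374697, minus strand: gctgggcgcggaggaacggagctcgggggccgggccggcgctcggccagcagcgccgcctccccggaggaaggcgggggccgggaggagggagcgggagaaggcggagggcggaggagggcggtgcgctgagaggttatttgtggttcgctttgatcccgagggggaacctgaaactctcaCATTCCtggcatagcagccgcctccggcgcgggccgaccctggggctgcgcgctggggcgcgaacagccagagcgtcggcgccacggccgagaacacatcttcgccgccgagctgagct
THBS1, chr15:39580829-39581128, plus strand: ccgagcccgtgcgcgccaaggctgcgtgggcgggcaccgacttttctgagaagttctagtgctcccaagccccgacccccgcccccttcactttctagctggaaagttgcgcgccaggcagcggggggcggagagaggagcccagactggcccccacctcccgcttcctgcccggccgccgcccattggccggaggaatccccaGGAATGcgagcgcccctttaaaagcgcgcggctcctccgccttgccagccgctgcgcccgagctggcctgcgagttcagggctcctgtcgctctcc
ANKRD1 (2 matches) and AJUBA (1 match) hold the motif as well and are not printed. CCN2, with 3 matches, and ANKRD1 were not called, AXL fell, and AMOTL2, AJUBA and THBS1 (log2 change 0.70, SE 0.095, adjusted p = 2.8e-11) rose. Promoter windows were given for 259 of the 367 genes called higher and 262 of the 372 called lower. The TEAD core stood in 15.4% of the former, 14.1% of the latter and 15.0% of the 10218 tested genes with a window. The AP-1 site TGANTCA, searched on both strands, stood in 10.4%, 6.49% and 7.20%, and in 7.71% of all 35116 windows of the table. These are shares of letters in short windows and do not locate bound sites.

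Matrix and adhesion genes mostly rose where they passed. Of 35 tested, 11 rose and 2 fell, with a median log2 change of 0.34 (0.067 with effective length offsets), and edgeR called 5 and 1. The DESeq2 shares were 31.4% higher and 5.71% lower, against 2.60% and 2.64% of all tested genes. THBS1 (chr15:39581079-39599466, plus strand), encoding thrombospondin 1, was at 7380.4 and 7539 normalized counts in Ctrli_ETH and 12698 and 11616 in TAZi_ETH. COL7A1, the anchoring fibril collagen, changed by 1.17 (edgeR adjusted p = 0.012), COL16A1, a fibril-associated collagen, by 1.01 and LAMA5, a laminin chain, by 0.78 (edgeR 0.021). SPARC, a collagen-binding glycoprotein, changed by 0.63 and ITGB8, an integrin chain, by 0.65. LAMA3, a laminin chain of epithelial basement membrane, was among those that fell (-0.47). The number of genes called higher was 1 without Ctrli_ETH replicate 1, 3 without Ctrli_ETH replicate 2 and 4 with either TAZi_ETH library left out, and 7 with effective length offsets.

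DCN (chr12:91140484-91183217, minus strand), encoding the small proteoglycan decorin, was at 1051 and 1205 normalized counts in Ctrli_ETH and 3330.1 and 2855 in TAZi_ETH. It more than doubled in both TAZi_ETH libraries (1.46, SE 0.13, adjusted p = 3.4e-26). DCN is on the list of 8 fibroblast markers, whose summed level was 61.8 and 59.0 TPM in Ctrli_ETH and 157 and 139 TPM in TAZi_ETH. DCN alone was at 60.5 and 58.2 TPM in Ctrli_ETH and 154 and 137 TPM in TAZi_ETH, while COL1A1 reached at most 0.36 TPM in the 4 libraries and COL1A2, PDGFRA and THY1 were at 0.

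Several secreted factors rose. Of 15 cytokine and chemokine genes tested, 4 rose (26.7%, against 2.60% of all tested genes) and none fell. edgeR also called 4 (CXCL2 in place of CXCL8). CSF1 (chr1:109910242-109930992, plus strand), the macrophage colony-stimulating factor, was at 228 and 267 normalized counts in Ctrli_ETH and 691 and 759 in TAZi_ETH (1.55, SE 0.18, adjusted p = 9.2e-15). The neutrophil chemokines CXCL3, CXCL1 and CXCL8 changed by 1.23, 1.16 and 0.84. CXCL1 was at 1301 and 863 normalized counts in Ctrli_ETH and 2461 and 2377 in TAZi_ETH, with both TAZi_ETH libraries above either control. With a single library left out, 1 or 2 of the list were called. Of 15 genes of the gp130, JAK and STAT3 axis 0 passed in DESeq2 and in edgeR, and 5 had an unadjusted p below 0.05 in DESeq2. IL6ST, encoding gp130, had a change of 0.24, SE 0.12, adjusted p = 0.23, and TYK2, a JAK kinase, of -0.033. Of 21 MAPK feedback genes 0 passed in DESeq2, where 7 had an unadjusted p below 0.05, and edgeR called 1 (ETV4, lower). The estimates were 0.026 for DUSP1, a MAP kinase phosphatase, and 0.23 for MYC, a growth-promoting transcription factor. Of 30 interferon-stimulated genes only IFI44L rose (1.26, SE 0.25, adjusted p = 2.5e-05), and edgeR called 2 of 31. The DESeq2 share was 3.33%, near the 2.60% of all tested genes called higher. IFI44L did not pass without Ctrli_ETH replicate 1 or without TAZi_ETH replicate 1 (adjusted p = 0.14 and 0.067).

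The TGF-beta and BMP target genes of the ID family, which encode inhibitors of basic helix-loop-helix factors, rose. ID3 (chr1:23557926-23559501, minus strand) was at 371 and 382 normalized counts in Ctrli_ETH and 729.6 and 874 in TAZi_ETH (1.09, SE 0.17, adjusted p = 2.8e-08). ID2 came from 17.8 and 15.4 normalized counts and changed by 2.12, and ID1 by 0.75 (edgeR adjusted p = 0.026). In the list of 24 genes, 3 rose (12.5%, against 2.60% of all tested genes) and 1 fell (4.17%, against 2.64%). None fell when any single library was left out, and 2 rose without TAZi_ETH replicate 1 and 1 when any of the others was left out.

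Contractile genes went both ways, with 4 higher and 4 lower of 29 (13.8% each, against 2.60% and 2.64% of all tested genes). MYL9, a myosin light chain, changed by 1.70 from 22.9 and 33.7 normalized counts, and MRTFA, the actin-regulated cofactor of SRF, by 1.06. TAGLN2 (chr1:159918107-159925507, minus strand), encoding transgelin 2, was at 4727 and 4751 normalized counts in Ctrli_ETH and 2823 and 2729.8 in TAZi_ETH, clearly lower in both TAZi_ETH libraries (-0.77, SE 0.10, adjusted p = 3.0e-12). MYH10, non-muscle myosin IIB, fell by 0.61 (edgeR 0.0101). edgeR called 2 of the contractile genes higher and 1 lower. By DESeq2, 3 rose and 2 fell without TAZi_ETH replicate 1, none rose when any other single library was left out, 1 fell with either Ctrli_ETH library left out and 2 without TAZi_ETH replicate 2. In the list of epithelial-mesenchymal transition 4 of 19 rose (21.1%, against 2.60% of all tested genes) and 1 fell (5.26%, against 2.64%). Those that rose mark both states. GRHL3, an epithelial transcription factor, changed by 1.27, CDH1 by 0.71, TGFBI, a matrix protein, by 0.57 and FN1, encoding fibronectin, by 0.54. edgeR called GRHL3 and CDH1 of these, and its adjusted p was 0.022 for TGFBI and 0.038 for FN1. In TPM the groups of CDH1 overlapped, as given above. The transition genes that rose numbered 0 without Ctrli_ETH replicate 1, 1 without Ctrli_ETH replicate 2 and 2 with either TAZi_ETH library left out, with none lower.

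Metabolic genes were called in both directions. FDPS (chr1:155308748-155320666, plus strand), encoding farnesyl diphosphate synthase of the mevalonate pathway, was at 11233 and 10726 normalized counts in Ctrli_ETH and 6182 and 5417 in TAZi_ETH (-0.92, SE 0.10, adjusted p = 1.3e-16), with TAZi_ETH well below the controls. In its list of 33 genes 4 fell (12.1%, against 2.64% of all tested genes) and 1 rose, the median was 0.00087, and edgeR called FDPS alone. LDHA, encoding lactate dehydrogenase A, fell by 0.78, and SLC2A1, the glucose transporter GLUT1, rose by 0.64, in a list of 36 with 4 higher (11.1%, against 2.60%) and 3 lower (8.33%). SLC7A5, a large amino acid transporter subunit, rose by 1.40, and HSPA5, the chaperone BiP, fell by 1.04, the only calls of 28 genes of the ATF4 and unfolded protein responses. Each is 3.57% of that list, near the 2.60% and 2.64% of all tested genes called higher and lower. SLC7A5 did not pass without Ctrli_ETH replicate 1 or without Ctrli_ETH replicate 2 (adjusted p = 0.56 and 0.33), while HSPA5 passed in all 4 such fits. Of 23 NRF2 and glutathione genes 3 rose, also a share above 2.60%, led by AKR1C2 and AKR1C1, and 1 fell. Without Ctrli_ETH replicate 1, without Ctrli_ETH replicate 2 or without TAZi_ETH replicate 2, 1 of the cholesterol and fatty acid genes fell and none rose, and in the glycolysis list none rose and 1 fell. Without TAZi_ETH replicate 1 these lists had 3 lower and none higher, and 2 of each. The NRF2 list had 2 higher and none lower whichever library was left out. Proteases and inhibitors held 4 higher (15.4%, against 2.60% of all tested genes) and 2 lower (7.69%, against 2.64%) of 26. Among them SERPINB13, an epidermal serpin, stood at 2.22 and the tissue inhibitors TIMP3, TIMP2 and TIMP1 at 0.90, 0.84 and -0.68. Of this list none was called higher without Ctrli_ETH replicate 1, 2 without Ctrli_ETH replicate 2 and 1 with either TAZi_ETH library left out, with at most 1 lower. Of 49 genes of the mitochondrial ribosome 1, MRPL12, fell (-0.66), which is 2.04% of the list beside 2.64% of all tested genes. EGFR was the only call of 12 EGF receptor and ligand genes (0.56, edgeR adjusted p = 0.0101), kept by DESeq2 only when the library left out was TAZi_ETH replicate 1. MRPL12 was in none of the calls with a library left out. Nearest to the threshold stood LEPR, the leptin receptor, inside it (-0.87, adjusted p = 0.00993), and FZD8, a WNT receptor, outside it (1.25, adjusted p = 0.01).

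The largest falls were mostly genes that share reads with others. By the rule used for the rises they included H4C12, SENP3-EIF4A1, HNRNPA1L3, ENSG00000260170, ENSG00000257390, NME1-NME2, RAB4B-EGLN2, WWTR1 and FAM72C. SENP3-EIF4A1, a readthrough gene annotated across SENP3 and EIF4A1, was at 663 and 527 normalized counts in Ctrli_ETH and 28.3 and 14.3 in TAZi_ETH (-4.78, SE 0.32, adjusted p = 3.3e-46), whereas the sum of the readthrough gene and its 2 partners was 14874 and 14665 against 12406 and 11338. The partners thus carried most of the counts, and the sum changed by -0.32 on the log2 scale. For NME1-NME2 the gene changed by -2.34 and the sum with NME1 and NME2 by -0.16, and for RAB4B-EGLN2 the values were -1.87 and 0.13. HNRNPA1L3, a processed copy of the RNA-binding protein gene HNRNPA1, changed by -2.64 and the sum over HNRNPA1 and its copies by -0.60. ENSG00000260170 shares 83.1% of its exonic bases with SQOR, and the pair changed by -0.47 against -2.45 for the gene alone. ENSG00000257390 overlaps DNAJC14 and SARNP, and the 3 together changed by -0.37 against -2.34. FAM72C belongs to 4 near-identical copies, and here the sum fell too, from 739 and 661 normalized counts to 343 and 271. FDPS, TYMS, MRPL12, MPC2 and H2AC7 also share exonic bases with neighbouring or overlapping genes. The single-gene falls of the readthrough genes are therefore uncertain, whereas that of the FAM72 family was seen in the summed reads.

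A further set of genes was chosen after their values were seen, because their levels followed a similar order over the libraries. RPS16 (chr19:39433137-39435949, minus strand), a protein of the small ribosomal subunit, was at 7259.8 and 7745 normalized counts in Ctrli_ETH and 2866 and 2008 in TAZi_ETH (-1.62, SE 0.14, adjusted p = 3.4e-26), without overlap. Its level varied widely over the 20 ER-Src libraries, from 171 to 835 TPM. It was 835 and 752 TPM in Ctrli_ETH and 312 and 223 in TAZi_ETH, but also 223 and 195 in YAPi_ETH, 377 and 315 in cells with siRNA against JUNB under ETH, and 588 and 635 in Ctrli_TAM. Low RPS16 was thus not confined to the TAZi libraries. HNRNPH3 and HNRNPA2B1, RNA-binding proteins of the hnRNP group, and ATIC, an enzyme of purine synthesis, changed by -1.76, -1.43 and -1.46 under ETH. Against YAPi_ETH, TAZi_ETH had changes of 0.20 (RPS16), 0.097 (HNRNPH3), 0.35 (HNRNPA2B1) and 0.099 (ATIC), none of them called.

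Another feature moved with the comparison. ENSG00000269968, a long noncoding gene whose exonic bases all lie opposite those of GAPDH (chr12:6537794-6538370, minus strand), had 0 counts in both Ctrli_ETH libraries and 3767 and 5539 normalized counts in TAZi_ETH, at least 1712-fold higher. ENSG00000258232, which lies opposite TUBA1C (chr12:49265156-49273306, minus strand), had 0 counts in both controls and 1081 and 1318 in TAZi_ETH, at least 441-fold higher. Both floors are 3 counts per library. Over all 20 ER-Src libraries the first was at 0 in 6 and reached 704 TPM in others, among them YAPi_ETH (408 and 503 TPM) and Ctrli_TAM (135 and 325 TPM). Whether reads were counted by strand is not stated in the sources used here, so reads of GAPDH and of the gene opposite to it cannot be told apart. The Ctrli_ETH libraries differ from TAZi_ETH in this split and in the RPS16 group together, and the part of these features in the calls above was not tested.

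Under TAM, which held AZD0530 beside the tamoxifen given to switch v-Src on, the same siRNAs were compared in libraries that the ETH comparison did not use. The parts of tamoxifen and of AZD0530 in any difference from ETH cannot be told apart. In the study's methods cells were split after transfection and then treated, so ETH and TAM libraries may share transfected cultures. Whether the treatments are independent replicates of the knockdown is therefore not known. There 470 of 13729 tested genes were called (3.42%), 240 higher (1.75%) and 230 lower (1.68%), or 195 by edgeR (1.33%), 122 higher (0.832%) and 73 lower (0.498%). Called in both treatments were 202 genes, 27.3% of the ETH calls and 43.0% of the TAM calls, with 94 higher in both and 106 lower in both. Of the 711 ETH calls tested under TAM, 640 (90.0%) had the same sign. That share was not computed over all tested genes, so it has no background beside it. Genes whose level varied widely over the libraries, such as RPS16, are among those with the same sign. Among genes also called by edgeR under ETH, protein-coding and with a mean of at least 100 in both, 65 were higher in both and 47 lower in both, and the 8 with the largest smaller change of the 2 in each direction, a rule set after the values were seen, are given next.

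The shared rises were COL5A3 (2.95 under ETH and 2.55 under TAM), SULF2 (2.24 and 2.46), AKR1C2 (1.84 and 2.68), SLC43A2, an amino acid transporter (1.66 and 2.16), ABCA12, a lipid transporter of keratinocytes (1.48 and 1.32), IL1R2, the decoy receptor for interleukin 1 (1.57 and 1.48), DCN (1.46 and 1.76) and EHF, an epithelial ETS factor (1.42 and 2.04). Under TAM, COL5A3 was at 89.8 and 106 normalized counts in Ctrli_TAM and 672 and 469 in TAZi_TAM, without overlap between groups. The shared falls, besides WWTR1 itself, began with FGFBP1 (chr4:15935577-15938740, minus strand), which encodes a carrier that releases fibroblast growth factors from the matrix. FGFBP1 was at 1729.8 and 1641 normalized counts in Ctrli_ETH and 745 and 721 in TAZi_ETH and at 527 and 622 normalized counts in Ctrli_TAM and 159 and 212 in TAZi_TAM. Both TAZi libraries lay well below both controls in each treatment, with a log2 change of -1.20, SE 0.13, adjusted p = 1.2e-17 under ETH and of -1.62 (adjusted p = 9.6e-12) under TAM. MPC2, a subunit of the mitochondrial pyruvate carrier, changed by -1.15 and -1.47, PLCB4, a phospholipase C, by -1.01 and -1.36, and SERPINA3, a serpin of the acute phase, by -1.08 and -0.94. H2AC7 (-0.97 and -1.29), FAM72A (-1.39 and -1.16) and HNRNPH3 (-1.76 and -1.07) completed the 8 and carry the limits on copies and on library variation given above. Of the mitosis genes 15 of 50 fell under TAM and none rose (median -0.43), and of the YAP/TAZ targets 4 of 22 fell and none rose (median -0.32).

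**Figure D4:**
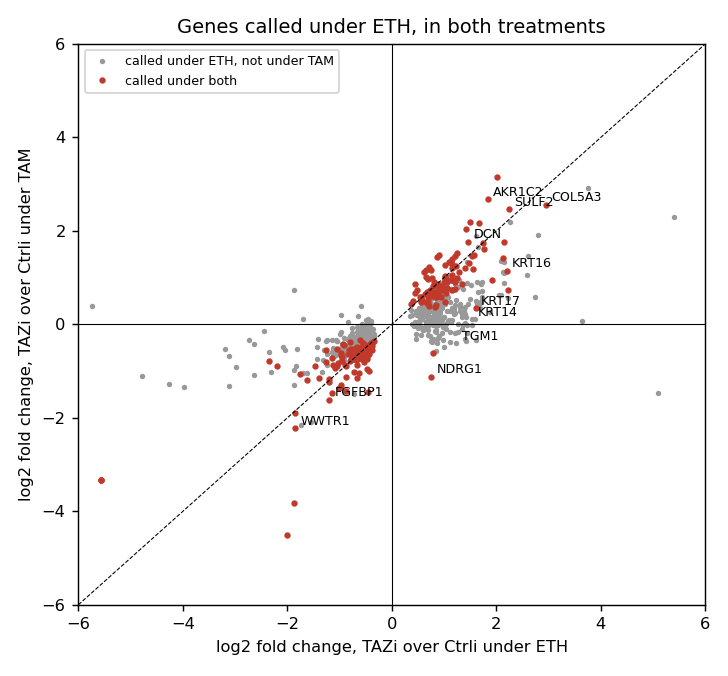
log2 fold change of TAZi over Ctrli under ETH (horizontal) and under TAM (vertical) for the 711 genes called under ETH and tested under TAM, red where called under both. The dashed line marks equal change, and 9 genes beyond 6 on either axis are not drawn. Of the 711 genes, 640 have the same sign under both treatments. On the TAM axis KRT14 is near 0 (0.11), and TGM1 (-0.41) and NDRG1 (-1.12) are below 0.

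The difference between the treatments was tested as an interaction. By DESeq2, 71 of 4424 genes with an adjusted p were called (1.60%), 15 with a higher (0.339%) and 56 with a lower effect under TAM (1.27%). edgeR called 5 (0.0326%), all with a lower effect (0.0326%, and 0.00% higher). The split was 31 and 46 with TMM size factors and 61 (0.622%) and 59 (0.602%), in all 1.22%, with effective length offsets, so the lean to lower effects depends on the scaling. The calls included epidermal genes that rose under ETH. KRT14 was at 8337 and 8792 normalized counts in Ctrli_TAM and 9947 and 8502 in TAZi_TAM, with overlapping groups and a change of 0.11, SE 0.10, adjusted p = 0.73, and its interaction was -1.45, SE 0.16, adjusted p = 3.5e-17 (edgeR adjusted p = 0.021). Per length, KRT14 stood at 219 ± 3.13 TPM in Ctrli_TAM and 269 ± 21.2 TPM in TAZi_TAM, beside 137 ± 9.64 TPM in Ctrli_ETH and 431 ± 5.08 TPM in TAZi_ETH. TGM1 was at 739 and 799 normalized counts in Ctrli_TAM and 592 and 566 in TAZi_TAM and had an interaction of -1.66, SE 0.20, adjusted p = 9.8e-14, also called by edgeR (adjusted p = 0.0031). KRT17 (-1.28), KRT16 (-1.07), KRT5 (-0.52) and DSP (-0.69) were called by DESeq2 alone. KRT16 passed the test in both treatments (2.20 and 1.15). Outside these genes NDRG1, a stress-induced gene of the hypoxia response, rose under ETH (0.75, SE 0.14, adjusted p = 3.8e-06) and fell under TAM (-1.12, SE 0.13, adjusted p = 3.2e-15), with an interaction of -1.89, SE 0.18, adjusted p = 7.7e-23 that edgeR also called. By the rule of largest size with a mean of at least 100, the leading interactions were the genes opposite GAPDH and TUBA1C, at -14.07 and -12.02 (these sizes follow from zeros in Ctrli_ETH), and HP, encoding haptoglobin, which had at most 3.85 normalized counts in any ETH library and 136 and 108 normalized counts in Ctrli_TAM and 2659.9 and 1982 in TAZi_TAM.

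**Figure D5:**
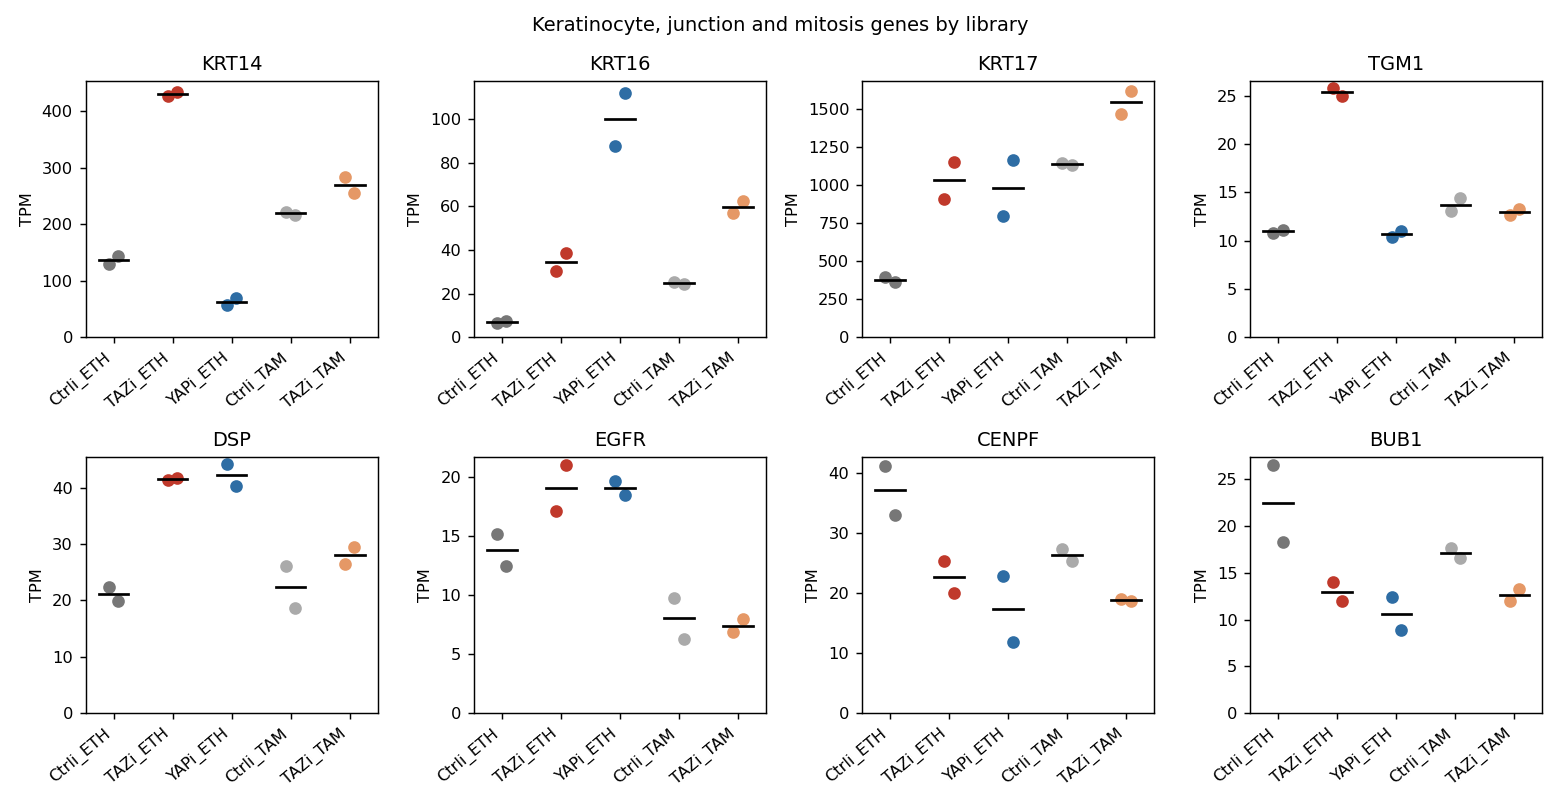
TPM of 8 genes in each library of Ctrli_ETH, TAZi_ETH, YAPi_ETH, Ctrli_TAM and TAZi_TAM, with points for libraries, bars for group means and vertical axes from 0. KRT14 is high in TAZi_ETH and low in YAPi_ETH, KRT16 is highest in YAPi_ETH, TGM1 is highest in TAZi_ETH, and CENPF and BUB1 are lower in TAZi than in Ctrli under both treatments.

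TAZi_ETH was also compared directly with YAPi_ETH, to see where loss of either paralog gave different levels. By DESeq2, 598 of 14059 tested genes were called (4.25%), 300 higher (2.13%) and 298 lower (2.12%) in TAZi_ETH, and 182 by edgeR (1.26%), 80 higher (0.552%) and 102 lower (0.704%). The targets themselves were apart, with WWTR1 at -1.82, SE 0.26, adjusted p = 4.6e-10 and YAP1 at 2.18, SE 0.16, adjusted p = 3.0e-39. The 3 genes highest relative to YAPi_ETH were COL5A3, ETNK2 and KRT14. COL5A3 was at 75.4 and 46.5 normalized counts in YAPi_ETH and 1264 and 1171 in TAZi_ETH (4.27, SE 0.22, adjusted p = 3.5e-78), far apart in the groups. KRT14 was at 2241 and 3036 normalized counts in YAPi_ETH and 15635 and 16022 in TAZi_ETH (2.59, SE 0.14, adjusted p = 1.3e-68). ETNK2, an ethanolamine kinase of phospholipid synthesis, was at 83.4 and 79.7 normalized counts in YAPi_ETH and 615 and 607 in TAZi_ETH (2.90, SE 0.23, adjusted p = 4.6e-34), and all of these groups were well apart. In TPM, KRT14 lay at 131 and 144 in Ctrli_ETH, 427 and 434 in TAZi_ETH and 56.8 and 68.9 in YAPi_ETH, so the knockdowns stood on opposite sides of the controls, and COL5A3 lay at 0.67 and 1.2, 8.61 and 8.07 and 0.57 and 0.33. CSF1 was higher in TAZi_ETH as well (1.71, SE 0.23, adjusted p = 1.8e-11). It was the only one called higher of 15 cytokine and chemokine genes tested here. Of that list 6 were called lower, and 12 of the 15 estimates were below 0 (median -0.85). Lowest relative to YAPi_ETH were AZGP1, a secreted zinc-binding glycoprotein, CYP1A1, a target of the aryl hydrocarbon receptor, and S100A7, psoriasin. AZGP1 was at 366 and 325 normalized counts in YAPi_ETH and 15.0 and 31.3 in TAZi_ETH (-3.93, SE 0.37, adjusted p = 3.3e-23), CYP1A1 at 773 and 2426 normalized counts in YAPi_ETH and 74.9 and 136 in TAZi_ETH (-3.92, SE 0.85, adjusted p = 0.00024) and S100A7 at 354 and 176 normalized counts in YAPi_ETH and 16.1 and 20.4 in TAZi_ETH (-3.87, SE 0.45, adjusted p = 3.7e-15). None of the 3 was called in TAZi_ETH against Ctrli_ETH. Among 16 cornified envelope genes tested here, 11 were lower and 1 higher in TAZi_ETH than in YAPi_ETH, with S100A8 at -2.90, SE 0.14, adjusted p = 4.8e-93. The keratins split, with 5 higher and 3 lower of 16, and KRT16 at -1.67, SE 0.19, adjusted p = 1.7e-16. Of the mitosis genes 1 of 50 was called, higher, with a median of 0.24, and 17 of 44 histone genes were higher in TAZi_ETH.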

How the data were processed

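RNA-seq libraries were made from total RNA with a ribosomal RNA depletion kit (TruSeq Ribo Profile). The authors trimmed reads, aligned them with STAR to hg38 and GENCODE v30 with up to 20 alignments per read, and ran RSEM, which gave the deposited expected counts (estimated counts per gene, reads shared between genes being split), the deposited TPM values and effective lengths (other values, in bases). Versions and the use of strand are not given in the sources used here. Of 61471 identifiers per file, 60725 were Ensembl genes and were kept, and 93.1% of these were named by GENCODE v44.

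Expected counts were rounded and tested with DESeq2 1.42.0 (R 4.3.3) in a run for each comparison, as in the study, with default settings and a threshold of 0.01 on the Benjamini-Hochberg adjusted p. Normalized counts are counts divided by DESeq2 size factors. With 2 libraries per group an exact permutation test cannot go below 0.333, so none was run. Alternatives were edgeR 4.0.16 (quasi-likelihood test), TMM size factors, a mean count of at least 10, effective length offsets, a fit over all 10 ER-Src groups, a replicate block and leaving out each library. On simulated data for TAZi against Ctrli under ETH, with 200 of 30849 genes changed, 45.0% of changes of 1 on the log2 scale and 69.0% of changes of 1.5 were recovered, with 7 false calls each. These stood beside 90 and 138 genes recovered, so false calls were a larger share of the calls than the threshold of 0.01. The changed genes were drawn only from those above a minimum mean count. Counts were drawn for each gene on its own from the fitted spread. Differences between libraries that many genes share were not simulated, so the false calls do not cover them.

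The comparison, its 30 gene lists and the rules for named genes were chosen with earlier results of these data known. Named were WWTR1 and YAP1, the 10 largest rises and falls (called protein-coding genes whose normalized counts averaged 100 or more, without overlap), up to 4 called members per list by size of change (with none called, the 2 most abundant), the 3 largest interactions, 3 in each direction against YAPi, and the genes nearest to the threshold. Others named were chosen after their values were seen. A few genes that the rules would name are not reported here.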

Additional observations from a re-analysis of the deposited data

Results flagged for a closer look

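The effect of TAZ siRNA differed between TAM and ETH for 15 of the genes named, by the DESeq2 interaction test (negative values mean a lower effect under TAM).

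In the epidermal and junction group the interaction was -1.45 for KRT14, -1.07 for KRT16, -1.28 for KRT17, -0.52 for KRT5, -1.66 for TGM1 and -0.69 for DSP. EGFR, the EGF receptor, had -0.82 (adjusted p = 0.00078), FOSL2 -0.96 (adjusted p = 3.0e-05) and ID1 -1.13 (adjusted p = 0.00044). GAS1, a growth arrest and hedgehog co-receptor gene, had -1.74, with changes of 1.41 under ETH and -0.31 under TAM. NDRG1 had -1.89 and changed in opposite directions. FDPS had 0.46, a smaller fall under TAM.

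HP had an interaction of 5.17 from almost no counts under ETH. The genes opposite GAPDH and TUBA1C, ENSG00000269968 and ENSG00000258232, had -14.07 and -12.02, sizes that depend on the handling of zeros in Ctrli_ETH. Of these 15 genes edgeR called TGM1, NDRG1, ENSG00000269968 and ENSG00000258232.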

How the results depend on the processing

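The number of genes called depended on the test and on single libraries, and the p-values rest on 2 libraries per group. For TAZi against Ctrli under ETH, edgeR called 491 genes and the fit with a replicate block 404, and leaving out a library left 128 to 463. Under TAM edgeR called 195, the replicate block left 177 and leaving out a library 96 to 200. The interaction gave 5 calls by edgeR, 120 with effective length offsets, 19 with all 10 ER-Src groups in the fit and 19 to 203 with a library left out. Against YAPi, edgeR called 182 and leaving out a library left 143 to 205. The same-numbered libraries of TAZi and Ctrli under ETH deviated together with r = 0.243 across 9509 genes, which 2 pairs cannot establish as a pairing. The causes of these shifts were not tested.

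Of the gene lists, the mitosis genes called lower numbered 12 by edgeR, 17 with the replicate block, 6 with all groups in the fit and 1 to 18 with a library left out. The cell-matrix genes called higher numbered 5 by edgeR, 7 with effective length offsets, 4 with the replicate block and 1 to 4 with a library left out. The cornified envelope genes called higher numbered 3 with all groups in the fit and 1 to 4 with a library left out, the junction genes 3 to 6, and the DNA replication genes called lower 1 by edgeR, 2 with all groups and 0 to 2. Of the named genes, 5, none of them called, changed sign. TYK2 was at 0.18 with effective length offsets. With a library left out the ranges were -0.17 to 0.087 for TYK2, -0.11 to 0.14 for DUSP1, -0.53 to 0.18 for PECAM1, -0.048 to 0.45 for CD68 and -0.43 to 0.017 for ANKRD1. Depth limits genes such as FLG, MYL9 and ID2, which had few counts in the controls.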

Other observations

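GPNMB (chr7:23235967-23275108, plus strand), a transmembrane glycoprotein of lysosome-related organelles, belongs to the genes called under ETH and was chosen after its values were seen. It had 0.849 and 2.89 normalized counts in Ctrli_ETH and 86.8 and 66.6 in TAZi_ETH (5.40, SE 0.89, adjusted p = 1.5e-07), so that it was almost absent in the controls and present in both TAZi_ETH libraries. Its level in YAPi_ETH was 2.49 and 1.65 TPM against 1.58 and 1.15 TPM in TAZi_ETH. Under TAM the change was 2.30 and did not pass (adjusted p = 0.19).

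The RNAs without a poly(A) tail, which this library type retains, took 9.95% to 10.8% of gene counts in the 4 ETH libraries. Within them RN7SL1, an RNA of the signal recognition particle, changed by -0.80 and its near copy RN7SL2 by 0.45. TRIM29, a basal epithelial gene, rose by 1.02, in a list of 15 mammary epithelial and basal genes of which 7 rose and 2 fell. These are 46.7% and 13.3%, against 2.60% and 2.64% of all tested genes.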
